A study of Drosophila melanogaster with 2 samples.

Results

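The regions described here are boundaries that separate a pair of longer topologically associating domains (TADs) in Drosophila melanogaster Kc167 cells. They were chosen from the deposited TAD coordinates as the positions where a TAD starts 1 bp after the previous one ends and both span at least 70 kb, on X and on both arms of chromosomes 2 and 3. This rule found 255 of the 1272 boundaries of these arms. Of the other boundaries, 721 lie beside a single longer TAD and 296 lie between shorter TADs. The map comes from Hi-C of Kc167 cells, an embryo-derived established line that the labels call Kc cells and for which they name no treatment. The nuclei were cut with DpnII, and the contacts of 2 replicates were combined before deposition into a single map at 10 kb resolution on release 5 of the genome. No control condition and no second cell type were used here, so every comparison is between positions of one pooled map, and no value has a spread between replicates.

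TADs are stretches of chromatin whose parts meet each other more often than they meet the neighbouring chromatin. In Drosophila their boundaries often lie at active genes and are bound by insulator and architectural proteins such as BEAF, CTCF and Chromator. Long Drosophila TADs often hold inactive or Polycomb-repressed chromatin, while active chromatin is often cut into short TADs. Where longer TADs meet directly, no further called boundary falls within 50 kb of the boundary on either side. The chromatin state at the individual boundaries was not analysed here. The TADs were segmented on this same map, so lower contact across a boundary is partly what defined it. The values below therefore describe the boundaries, with no test.

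The pooled map holds 34287983 di-tags, each a ligated pair of DNA ends, over 8265968 pairs of bins. A single di-tag was found in 76.0% of them, so single bin pairs are sparse and the values below are means over blocks of pairs. In the 50 kb squares at a boundary the raw map held a median of 2183 di-tags crossing it, ranging from 178 to 4793, and a median of 5155 within its sides. Contact was expressed as observed over expected, the normalised signal of a bin pair divided by the mean over its arm for that distance. The main measure at a boundary is the log2 ratio of mean crossing contact to mean contact within the left and right sides, over the 5 bins (50 kb) to each side. A value of 0 means equal contact and a value of -1 means that crossing contact was 0.5 times the contact within the sides.

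The longer TADs beside these boundaries were mostly of moderate size. The smaller TAD of a pair had a median of 80 kb and the larger one a median of 160 kb, with the largest at 500 kb. Together the pairs drew on 401 of the 632 longer TADs of the arms, and 109 of these TADs had such a boundary at both ends. The boundaries formed 146 runs along the arms, of which 82 were single boundaries, 39 held 2 in a row, and the longest held 6. Neighbouring boundaries of a run share a TAD and are not independent. Of the 255 boundaries, 15 lay within 1 Mb of an end of the mapped arm. At 50 kb, 254 could be measured. The exception, at 2R 15650000, lies beside a TAD of 9 bins of which 7 hold any di-tag.

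Contact across the boundaries was lower than contact on their sides at most sites. The median log2 ratio was -0.47 at 50 kb, with quartiles at -0.81 and -0.19 and a range from -2.28 to 0.35 (n = 254 boundaries). On the linear scale crossing contact was 0.724 times the contact within the sides. The ratio was below 0 at 234 of 254 boundaries, or 92.1% (95% Wilson interval 88.2 to 94.8%), where 48.7% of all 10 kb bin edges of the arms had a value below 0. Such intervals treat boundaries as independent, although neighbours in a run share a TAD, and do not measure the counting error of di-tags. The ratio was at or below -1 at 36 boundaries (14.2%, interval 10.4 to 19.0%), against 7.58% of all bin edges. The larger square, of 100 kb, gave a shallower median of -0.40, with quartiles at -0.72 and -0.11 (n = 255). It ran past the smaller TAD at the 158 boundaries where that TAD spanned 70 to 90 kb. When only distances present within the sides were used, the medians were -0.55 at 50 kb and -0.56 at 100 kb. In the larger square, 215 boundaries (84.3%) had a value below 0, beside 54.4% of all edges, and 29 (11.4%) were at or below -1, beside 10.6%. Since the boundaries were called on this map, nothing is read from these shares.

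In the 50 kb squares the low ratio came with low crossing contact rather than with high contact on the sides. Over whole TADs, given below, contact within was also above the arm mean, at 1.23, with 0.728 between the TADs. Median crossing contact was 0.701 of the arm mean at the same distance, whereas the left side stood at 0.969 and the right side at 0.981. Crossing contact was below the arm mean at 224 of 254 boundaries (88.2%), where 56.5% of all bin edges had a crossing contact below 1. It was below the contact of both sides at 212 boundaries (83.5%), where this held at 38.4% of all bin edges and at 91.0% of all boundaries. In the middle of the same longer TADs, the same squares gave a crossing contact of 1.18, a contact of 0.936 within the sides and a median log2 ratio of 0.34 (n = 400). Around the middle of a TAD under 100 kb the squares run past its ends. In the TADs of at least 100 kb, which hold the squares whole, the median was 0.47 (n = 256), so inside a longer TAD the measure mostly lay above 0. The crossing square holds longer distances than the sides do, and contact within these TADs rose against the arm mean with distance, as given below.

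The 5 arms gave similar values. The median log2 ratio at 50 kb was -0.44 on 2L (n = 40), -0.47 on 2R (n = 46), -0.36 on 3L (n = 59), -0.55 on 3R (n = 75) and -0.48 on X (n = 34). The quartile ranges of all arms overlapped, from -0.81 to -0.17 on 3L and from -0.80 to -0.25 on 3R, the arms with the highest and the lowest median. In the 100 kb squares the order changed, with 2R lowest at -0.51 and 2L highest at -0.29. Pearson's r of the ratio with the distance to the nearer end of the arm was 0.00 (n = 254, a description across sites that share a map).

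**Figure D1:**
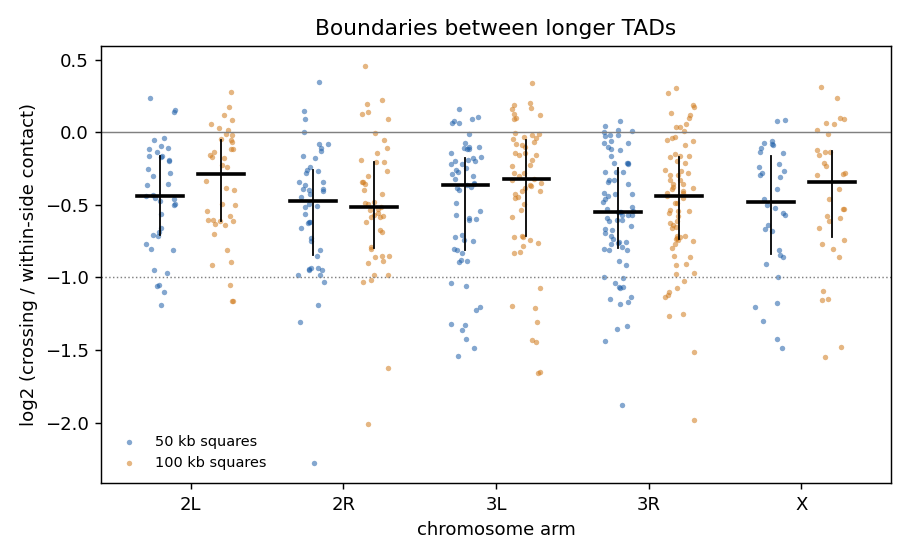
Log2 ratio of crossing to within-side contact (vertical axis) at each boundary between longer TADs, by chromosome arm (horizontal axis), in 50 kb squares (blue) and 100 kb squares (orange), with the median as a thick line and the quartiles as a thin one. Most points lie between 0 and -1 on every arm, and the lowest site, on 2R, stands at -2.28 in the 50 kb squares.

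Single boundaries differed by more than their counting error. From raw di-tags, the 95% interval of a site's log2 ratio (exact binomial, counting error only) had a median extent of 0.07 to either side, while the SD of the raw ratio over sites was 0.43. The interval lay wholly below 0 at 204 boundaries, held 0 at 30 and lay wholly above 0 at 20. A site near the median of all sites was thus measured well enough to be told from 0, and neighbours in the order of sites usually could not be told from each other. PCR copies that were not removed would make these intervals too short.

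**Figure D2:**
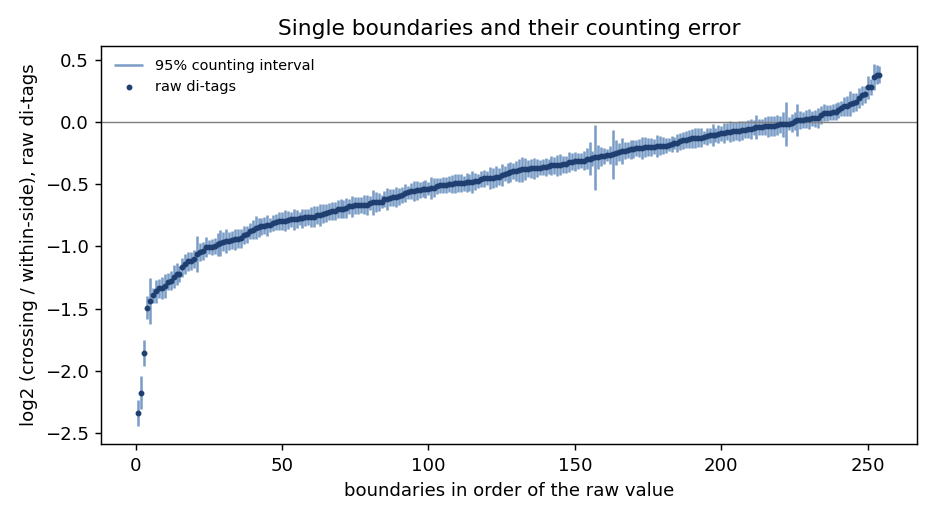
Raw log2 ratio of crossing to within-side di-tags in 50 kb squares (vertical axis) for 254 boundaries in order of that value (horizontal axis, rank), with the 95% counting interval of each site as a vertical line. The intervals are short beside the spread of the sites, 204 of them lie wholly below 0, and the lowest 3 sites stand below the rest.

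The strongest boundary lay at 2R 10510000, between TADs of 130 kb each (10380001 to 10510000 and 10510001 to 10640000). There 851 raw di-tags crossed and 7936 stayed within the sides, and the normalised ratio was -2.28, or 0.206 on the linear scale. Its raw ratio was -2.34 (counting interval -2.44 to -2.24), and its left side held 5715 raw di-tags beside 2221 on the right, which the normalised map evened to 0.864 and 0.886 of the arm mean. Over the whole of both TADs the log2 ratio was -2.63, so the separation continued beyond the 50 kb squares. The next site was 3R 18180000, between TADs of 110 kb each (18070001 to 18180000 and 18180001 to 18290000), with 923 di-tags crossing, 5911 within the sides and a ratio of -1.88. Its value in the 100 kb squares was -1.98.

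The other 3 of the 5 lowest sites had a TAD of 70 or 80 kb on one side. At 3L 5740000, between 5560001 to 5740000 and 5740001 to 5810000, 1148 di-tags crossed and 5673 lay within the sides, and the ratio was -1.54. It was -0.82 in the 100 kb squares, and -1.30 at the same distances. At 3L 12730000, between 12530001 to 12730000 and 12730001 to 12800000, the counts were 1778 and 7554 and the ratio -1.48, with -1.66 in the 100 kb squares and only -0.87 at the same distances. At X 3690000, between 3610001 to 3690000 and 3690001 to 3830000, the counts were 512 and 4049 and the ratio -1.49, with -1.55 in the 100 kb squares and -1.002 at the same distances. The first and second sites of the order had -2.01 and -1.48 at the same distances. Here, at X 3690000, the raw ratio was lower, at -2.17 (interval -2.31 to -2.04), and the bins of the left TAD had a median raw total of 0.501 times that of the arm, beside 1.20 in the right TAD. Crossing contact itself was 0.645 of the arm mean at X 3690000, whereas it was between 0.180 and 0.339 at the other 4 sites. The left side at X 3690000 had 2.32 and the right side 1.30 in the deposited normalisation. This direction was turned in the raw map (log2 left over right -0.88, with 1420 and 2629 di-tags) and smaller with iterative correction (0.25, beside 0.84). With iterative correction in place of the deposited normalisation the 5 sites gave values from -2.25 to -1.46.

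The weakest boundaries had crossing contact as high as that of the sides. The highest ratio, 0.35, was found at 2R 15560000, between 15390001 to 15560000 and 15560001 to 15650000, with 2430 di-tags crossing and 3448 within the sides. The same site had a ratio of -1.02 in the 100 kb squares and -2.55 over the whole of both TADs. Its right TAD is the one of 9 bins with 7 filled, and their median raw total was 0.413 times that of the arm, so this site is not weak by every measure. The next highest were 2L 14100000 (0.24, between TADs of 190 and 260 kb), 3L 14400000 (0.16, 190 and 130 kb), 2L 11280000 (0.15, 150 and 220 kb) and 2R 1330000 (0.15, 70 and 210 kb). Coverage was thin at 2R 1330000, where 6 of the 7 bins of the left TAD were filled. Its TADs had median raw totals of 0.254 and 0.489 times that of the arm, and iterative correction gave no value. At 2L 14100000, 3301 di-tags crossed and 4407 lay within the sides, with crossing contact at 0.654, the left side at 0.551 and the right side at 0.560. All 3 values were thus far below the arm mean at this site. When only pairs at the same distances were compared, 3 of these 5 sites turned below 0, with -0.30 at 2L 14100000, -0.12 at 3L 14400000 and -0.19 at 2R 1330000, while 2L 11280000 gave 0.06 and 2R 15560000 gave 0.10. Over whole TADs all 5 were below 0, from -2.55 to -0.17.

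The dip at the boundary was narrow. When the 50 kb squares were moved along the arm, the median log2 ratio was -0.25 at 10 kb to the left and -0.28 at 10 kb to the right. It reached -0.04 and -0.02 at 20 kb, and 0.14 and 0.15 at 30 kb. At 50 kb to either side it stood at 0.28 and 0.24. The squares there reach up to 100 kb from the boundary, past the end of the TAD at many sites. The width of a dip was taken as the number of consecutive bin edges, the boundary included, at which the ratio stayed at or below 0.5 times its value at the boundary. Over the 234 sites with a value below 0 the median width was 3 edges, with quartiles at 2 and 3. A width of 1 edge was found at 34 sites (14.5%), 2 or 3 edges at 146 (62.4%), 4 to 6 edges at 46 (19.7%) and more at 8 (3.42%). With a square of 50 kb, which itself smooths over several edges, narrower dips cannot be resolved.

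The widest dips, of 11 edges, were found at 4 boundaries. One of them, 2L 1080000 between TADs of 190 and 70 kb, had a ratio of only -0.17, with 4723 di-tags crossing and 8930 within the sides, and its lowest edge was 30 kb to the right. This wide dip was therefore shallow. Across sites, width and ratio were weakly related (Pearson r -0.16, Spearman rho -0.30, n = 234, a description across sites of one map in which the width is defined from the ratio).

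**Figure D3:**
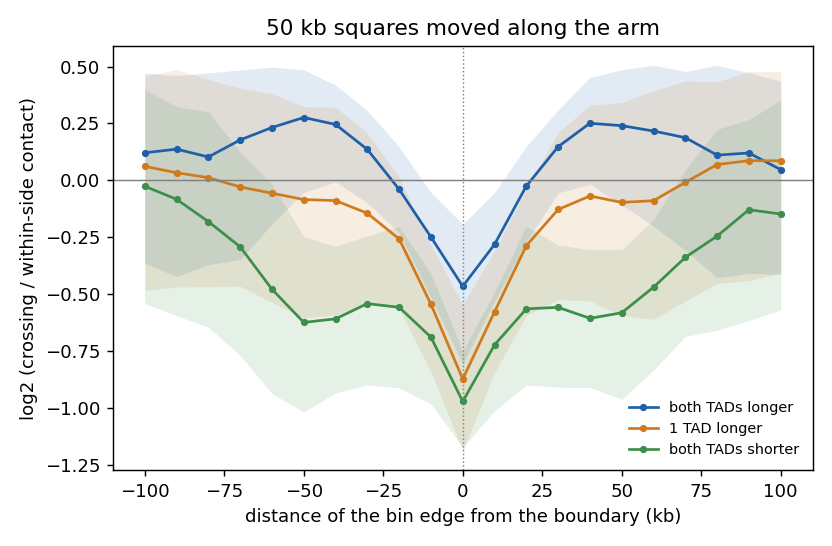
Median of the log2 crossing to within-side ratio in 50 kb squares (vertical axis) against the distance of the bin edge from the boundary in kb (horizontal axis), for boundaries between longer TADs (blue), beside 1 longer TAD (orange) and between shorter TADs (green), with the quartiles shaded. Between longer TADs the median falls to -0.47 at the boundary and is above 0 from 30 kb on, while between shorter TADs it stays below 0 up to 100 kb away.

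The called position was the lowest edge nearby at most sites. Among the 7 edges within 30 kb, the boundary itself had the lowest ratio at 170 of 254 sites, or 66.9% (Wilson interval 60.9 to 72.4%), where 11.3% of all bin edges were the lowest of their own 7. The lowest edge was 10 kb to the left at 25 sites and 10 kb to the right at 28, and 7 or 8 sites had it at each of the 4 further edges. At 1 site the neighbouring edges could not all be measured. The deviations were spread over both sides. Beside 1 longer TAD the boundary was the lowest edge at 60.7% of 718 sites, and between shorter TADs at 38.1% of 291.

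The bins that touch the boundary leaned towards their own TAD. Over the 100 kb to each side, the left touching bin had a median log2 ratio of right to left contact of -0.39, and 200 of 253 such bins had more contact to the left. The right touching bin had a median of 0.51, and 208 of 253 had more contact to the right. Both bins leaned towards their own TAD at 155 boundaries. The medians were -0.56 and 0.50 beside 1 longer TAD and -0.41 and 0.33 between shorter TADs, so the lean was not particular to these boundaries. Over all bins of the arms the median was 0.007. The lean is drawn from contacts within the arm, on which the boundaries were called. The lean reached farther than the crossing squares. The 5 bins left of the boundary had a median contact of 1.08 with bins 50 to 150 kb away on their own side and of 0.766 with bins as far away from the boundary on the other side. For the 5 bins to the right the values were 1.09 and 0.812. The far pairs of the own side are nearer in sequence, but each value is set against the arm mean at its own distance.

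**Figure D4:**
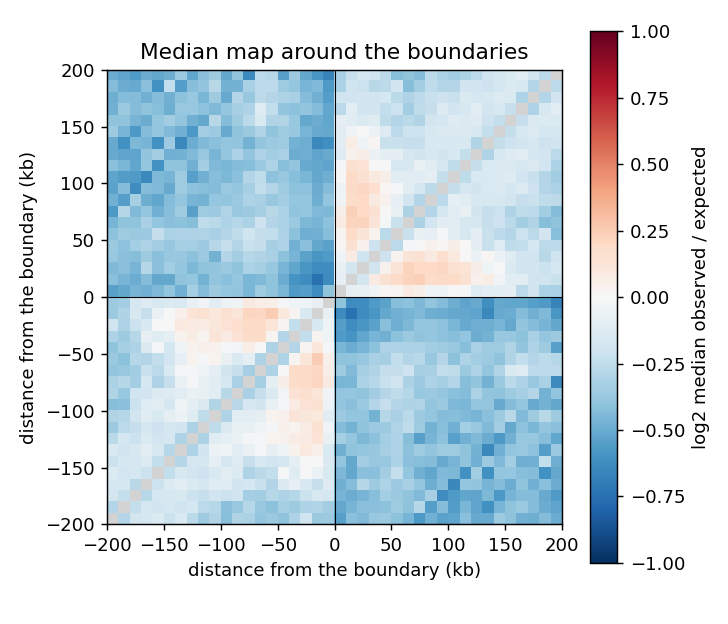
Median observed over expected contact around 254 boundaries on a log2 colour scale, with the distance of each bin from the boundary in kb on both axes and the diagonal in grey. The blocks across the boundary (upper left and lower right) are below the arm mean throughout, lowest close to the boundary, while bins between 10 and 40 kb from the boundary have contact above the mean over a middle range of distances on their own side.

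The separation grew between 10 and 50 kb when crossing and within pairs were compared at equal distance inside the same TAD pairs. At 10 kb the crossing pair had a median of 0.759 and the pairs within either TAD 0.858, a median log2 ratio of -0.19. Crossing was the lower at 180 of 255 boundaries (70.6%), close to its share of 65.8% across the middles of longer TADs, described below. At 20 kb the values were 0.639 and 0.994, with a log2 ratio of -0.61 and crossing lower at 250 boundaries. At 50 kb they were 0.694 and 1.22 (log2 -0.80, lower at 254 of 255). At 100 kb they were 0.857 and 1.58 (log2 -0.86, lower at 209 of 216). At 200 kb they were 1.21 and 2.36 (log2 -0.95, lower at 65 of 68 boundaries with a TAD that long on at least one side). Contact relative to the arm mean thus broadly rose with distance both across and within, from 20 kb on, and the gap on the log2 scale opened mostly between 10 and 50 kb. Larger distances are covered by fewer and longer TADs, so the sites behind the values change along the way. Both TADs spanned at least 100 kb at only 97 boundaries, and the smaller one spanned 150 kb or more at 35. The within values at 100 and 200 kb thus often came from the longer TAD alone, and are not set against crossing contact on equal terms.

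The split of longer TADs at their middle, where no boundary was called, served as the measure of an undivided stretch. Over 155 TADs of at least 140 kb next to these boundaries, pairs across the middle and pairs within either part differed by a log2 ratio of -0.14 at 10 kb, 0.04 at 50 kb and 0.14 at 100 kb (n = 57 at 100 kb). Crossing was the lower at 65.8% of these TADs at 10 kb and 67.1% at 20 kb, against 70.6% and 98.0% of the boundaries. At 50 and 100 kb it was the lower at 41.9% and 35.1%, against 99.6% and 96.8%. The small difference at 10 kb was thus nearly as large at TAD middles as at the boundaries, while at 50 kb and beyond the boundaries stood apart. Taken over all pairs of a whole TAD pair, contact between the TADs had a median of 0.728 and contact within them 1.23, with a median log2 ratio of -0.71 and a range from -3.71 to -0.07. It was below 0 at 255 of 255 boundaries. The same measure across the middle of TADs was below 0 for 49 of 155, or 31.6%, with a median of 0.10. The segmentation was made on the same contacts, so the count is a description.

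**Figure D5:**
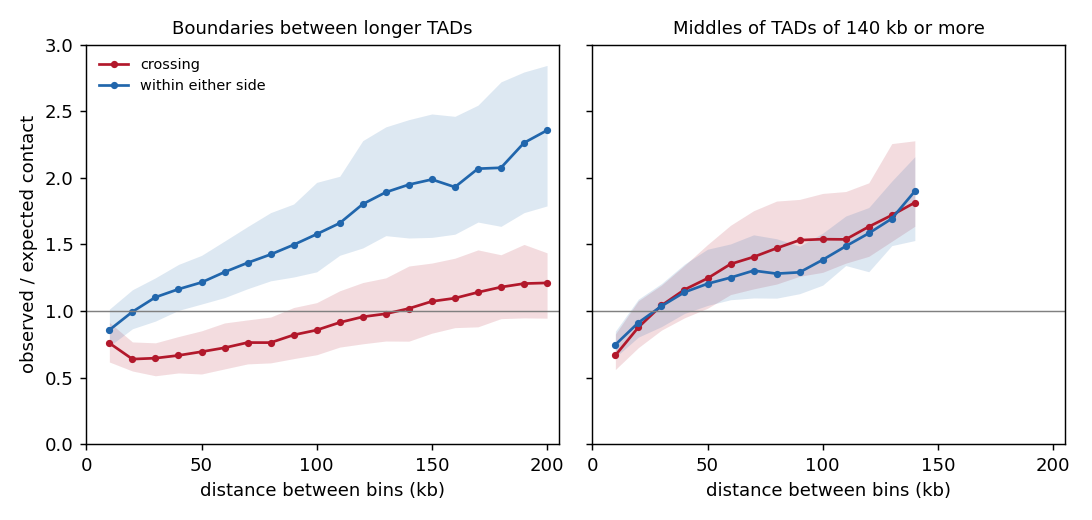
Median observed over expected contact (vertical axis) of bin pairs that cross (red) and pairs within either side (blue) against the distance between the bins in kb (horizontal axis), for boundaries between longer TADs (left) and for the middle of TADs of at least 140 kb (right), with the quartiles shaded. At the boundaries the curves separate from 20 kb on and stand at 0.857 and 1.58 at 100 kb, while across TAD middles they run together.

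The sides of a boundary were mostly alike in density. The median absolute log2 ratio of left to right contact was 0.19 at 50 kb and 0.26 at 100 kb. The left side was the denser one at 120 of 254 sites (47.2%, Wilson interval 41.2 to 53.4%). The sides differed by more than 1.5 times at 19 sites (7.48%, interval 4.84 to 11.4%), where 13.6% of all bin edges had such a difference. In pairs of unequal size the longer TAD was the denser at 86 of 235 sites (36.6%), beside 57.9% of 717 boundaries beside 1 longer TAD and 70.2% of 242 between shorter TADs. Beside 1 longer TAD the median absolute log2 ratio was 0.29, and between shorter TADs 0.35. In squares of fixed size a short TAD does not fill its side, so these classes are not compared on equal terms. The raw map gave 0.38 for the boundaries between longer TADs, with differences in bin coverage uncorrected.

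Of the 6 most uneven sites, 3 lay in thinly covered sequence. The left side was 2.21 times as dense as the right at 2R 650000, 1.97 times at 3L 24130000 and 1.88 times at 3L 13840000. The right side was 1.76 times as dense as the left at 3L 23360000, 1.73 times at 3R 15240000 and 1.66 times at 3L 18680000. At 3L 24130000, between TADs of 400 kb each, 319 di-tags crossed, 152 lay in the left square and 519 in the right, so the raw counts ran against the normalised values. The bins of its TADs had median raw totals of 0.173 and 0.127 times that of the arm. At 3L 23360000 the raw counts were 1236 on the left and 169 on the right, again opposite to the normalised values, and the TADs had totals of 0.346 and 0.210. At 2R 650000 the totals were 0.525 and 0.405, and the raw counts of 932 and 496 ran the same way as the normalised ones. The remaining 3 sites had totals between 0.934 and 1.22. Measured in the same way on the raw map, the direction was turned at 4 of the 6 sites, the exceptions being 2R 650000 and 3L 18680000. Iterative correction covered only the 3 sites of ordinary coverage and kept the direction there, with log2 left over right of 0.50 at 3L 13840000, -0.41 at 3R 15240000 and -0.53 at 3L 18680000. The direction at the thinly covered sites 3L 24130000 and 3L 23360000 therefore rests on the deposited normalisation.

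The ratio varied with the size of the TADs. Where the smaller TAD spanned 70 to 90 kb the median log2 ratio was -0.62 (n = 157), at 100 to 140 kb it was -0.26 (n = 62) and at 150 kb or more -0.20 (n = 35). Across sites the ratio rose with the log2 size of the smaller TAD (Pearson r 0.33, Spearman rho 0.38, n = 254, a description across sites that share the map and partly share TADs). When only pairs at the same distances entered, the medians were -0.67, -0.44 and -0.36, and the correlation fell to 0.23 (rho 0.26). In the 100 kb squares at the same distances the medians were -0.58, -0.59 and -0.43, so the step between the first and second size classes was not seen there. In the first class these squares ran past the smaller TAD, so the classes are not compared on equal terms. At the threshold of the rule, boundaries whose smaller TAD was 70 kb had a median of -0.66 (n = 81), and those with a TAD of 60 kb beside a longer one, just outside the rule, had -0.80 (n = 140). At the same distances these became -0.64 and -0.70, and the median width was 3 edges for both.

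Boundaries between longer TADs had the shallowest median of the classes in the standard squares. At equal distances their median lay between those of the other classes. The median log2 ratio at 50 kb was -0.47 between longer TADs, -0.87 beside 1 longer TAD and -0.97 between shorter TADs. At the same distances the medians were -0.55, -0.63 and -0.47, so the difference from boundaries beside 1 longer TAD shrank from 0.41 to 0.076 and the order of the classes changed. At the same distances the ratio was below 0 at 249 of 254 boundaries between longer TADs (98.0%, all edges 49.9%) and at or below -1 at 23 (9.06%, all edges 1.82%). In the 100 kb squares at the same distances, 246 of 255 (96.5%, all edges 50.8%) were below 0 and 28 (all edges 2.57%) at or below -1. Crossing contact near the boundary was 0.639 at 20 kb between longer TADs, 0.667 beside 1 longer TAD and 0.728 between shorter TADs. At 90 kb it was 0.807, 0.520 and 0.420. Contact across a boundary between longer TADs thus recovered towards the arm mean with distance. Between shorter TADs it kept falling, and beside 1 longer TAD it fell to 0.528 at 60 kb and was then nearly level. In both of these classes the squares often cross further boundaries, and the part of this was not tested. The median width of the dip was 4 edges beside 1 longer TAD and 6 between shorter TADs.

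The bins at these boundaries had a lower ratio of short-range to long-range contact than bins 50 kb away. This ratio, of contact at 10 to 50 kb to contact beyond 50 kb up to 500 kb, had a median of 0.919 in the touching bins and of 1.10 in bins 50 kb away, and it was higher at the boundary in 55 of 254 sites (median difference -0.15). Boundaries beside 1 longer TAD had the same order, with 1.13 in the touching bins and 1.29 in bins 50 kb away (median difference -0.13). Between shorter TADs the touching bins stood at 1.80 and the bins 50 kb away at 1.63, the opposite order. These TADs span at most 60 kb, so the bins 50 kb away lie near or past the next boundary. All bins of the arms had a median of 0.999. The short-range contact of a touching bin includes contact across the boundary, on which the boundaries were called. Sites with a higher ratio of short to long contact had a lower crossing ratio (Pearson r -0.40, Spearman rho -0.43, n = 254, both measures drawn from the same bins). At the same distances this correlation shrank to -0.20 (rho -0.28). The touching bins had a total of 1.04 times the arm median and the bins 50 kb away 1.01, and Pearson's r between the crossing ratio of a site and its total was -0.01. The part of coverage in the other differences was not tested.

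The bins at the boundaries had a slightly higher share of contacts with other arms. Of the di-tags of the touching bins a median of 12.0% joined another arm or chromosome, compared with 11.1% in bins 50 kb away. The difference had a median of 0.895 percentage points and was above 0 at 172 of 254 sites. The share is of all di-tags of a bin, so it also moves with the contacts within the arm on which the boundaries were called. A like difference was found beside 1 longer TAD (0.702) and between shorter TADs (0.451). The touching bins there had higher shares, of 12.6% beside 1 longer TAD and 13.7% between shorter TADs. All bins of the arms had a median of 11.7%. Contacts between bins at these boundaries on different arms numbered 8228, where 8049 were expected from the totals of the bins, a ratio of 1.02 (exact Poisson interval 1.00 to 1.04, counting error only). Of 10 pairs of arms 5 had a ratio above 1, with a range from 0.973 to 1.11. Bins in the middle of the same TADs gave 1.01 (interval 1.00 to 1.03), and the intervals of both overlapped. Bins at boundaries between shorter TADs had a ratio of 1.15 (interval 1.13 to 1.17), above 1 for all 10 pairs of arms.

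The far corner of a TAD, where its ends meet, was measured for the 109 longer TADs with such a boundary at both ends. The 2 outermost bins of each end had a median contact of 1.39 with each other, with quartiles at 0.911 and 2.09, and the whole TADs had a median of 1.17. The ratio of corner to whole TAD had a median of 1.15 and was above 1 in 73 of 109 TADs. For pairs with a bin just inside one end and a bin just outside the other, contact was 0.930. The bins just outside both ends, which flank the TAD, had a contact of 0.786 with each other. Contact between the flanks was 0.803 times the contact of the mixed pairs in the median, and exceeded it in 27 TADs. The far corner lies at the longest distance of the TAD, where contact within TADs was highest against the arm mean, so the excess at the corner cannot be told apart from that rise.

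The ends of one TAD were not alike in strength. Over 108 of these TADs with both ends measured, the ratio at the left end was nearly unrelated to the ratio at the right end (Pearson r 0.04, Spearman rho 0.03, a description over TADs of which some are neighbours). At the same distances r was 0.10. The median absolute difference between the ends of a TAD was 0.33 on the log2 scale, several times the counting error of a site. The ratio of a site was well related between the measures, with r 0.85 to the 100 kb squares, 0.75 to the same distances and 0.66 to whole TADs (n = 254, from overlapping bin pairs of one map).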

How the data were processed

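The boundaries, TAD classes and measures were chosen with earlier results of these data known. With HiCUP and Bowtie2 (2.2.6 in the processing notes) the authors mapped reads to genome release 5. They combined 2 replicates, binned contacts at 10 kb and deposited raw counts of di-tags per bin pair. For the same pairs they deposited a normalised signal made with GOTHiC. They segmented it with HiCseg, removed the weakest borders and deposited the first and last base of each TAD. Bin pairs that are not listed count as 0 where both bins hold di-tags elsewhere.

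Expected contact is the arm mean at equal distance, with bins without di-tags left out and pairs of a bin with itself not used. A site needed at least 0.5 of the pairs of each square. Measures at the same distances use only distances present within the sides, each with equal weight. Named sites are the 5 lowest and 5 highest ratios, the 3 most uneven in each direction, the widest dip and the site not measured. Intervals are Wilson for shares of sites, taken as independent, and exact binomial or Poisson for di-tags, at 95%. Alternatives were raw counts, iterative correction, bins under 0.25 of the arm median left out, subsets of sites, other squares and other distances. No genome or annotation of release 5 was used, so no sequence or gene is given at a site. On simulated maps with planted domains, the same-distance ratio, the left over right ratio at the same distances, the share of lowest edges and the counting interval were checked. The ratio and the left over right ratio in the standard squares and the dip width were not checked against planted values. Software was Python 3.11.15 (matplotlib 3.10.9, pandas 2.3.3, scipy 1.17.1, numpy 2.4.6).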

Additional observations from a re-analysis of the deposited data

How the results depend on the processing

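Over 12 results and 72 alternatives, 52 values stayed within the interval of the main value, 20 moved and 0 changed sign. Shares of sites, the dip width, absolute ratios of the sides, corner contact and the ratio between arms cannot fall below 0. For these results a change of sign was not possible. The interval measures counting error only for di-tags between arms, and elsewhere it is taken over sites or TADs. For the difference from boundaries beside 1 longer TAD it leaves out the error of that class. No paired analysis was possible because both replicates were pooled before deposition, and for the same reason leaving out each replicate was not run. With both TADs at least 100 kb (n = 97), the median log2 ratio was -0.24 at 50 kb and -0.14 at 100 kb, 85.6% of sites were below 0 and 3.09% at or below -1, the boundary was the lowest edge at 59.8%, and the difference from boundaries beside 1 longer TAD was 0.63. At the same distances the 100 kb median was -0.56, 98.0% were below 0, 9.06% at or below -1, and the difference was 0.076. At the same distances and with both TADs at least 100 kb the 100 kb median was -0.55. That combination and 2 others were chosen after seeing the data. Without adjacent bins 96.5% were below 0 and the difference was 0.28. In 100 kb squares 84.3% were below 0 and the absolute log2 ratio of the sides was 0.26, beside 0.38 with raw counts and 0.24 with iterative correction. At 0.25 of the boundary value the dip was 4 edges wide. The boundary was the lowest within 5 edges at 58.3%. The far corner stood at 1.69 in raw counts. The cause of these changes was not tested, other than that the subset holds fewer sites and the same-distance measure leaves out the longer pairs. Depth limits single bin pairs and also some 50 kb squares, since crossing di-tags numbered as few as 178. The counting interval reached up to 0.26 to either side, beside a median of 0.07.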
